A study of Mus musculus with 11 samples.

Results

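Cytosolic ribosomal protein genes were described in RNA-seq libraries of sorted mouse beta cells. A gene was taken as a member when it was annotated as protein-coding and its symbol was Rpl or Rps followed by a digit, or Rplp0, Rplp1, Rplp2 or Rpsa, leaving out the Rps6k kinases. This rule found 92 genes of the 55487 in the tables, and it used no measured value. Of these, 77 encode proteins of the standard ribosome, 46 in the large subunit and 31 in the small subunit. The other 15 are paralogs, annotated copies (the -ps genes and Rps27rt) and Rps19bp1, which encodes a protein that binds RPS19 and is not itself a ribosomal protein. Fau and Rack1 also encode standard ribosomal proteins but have other symbols, and were followed separately.

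The study asked how beta cells within one islet differ in their response to IFNγ, using the membrane protein PD-L1, encoded by Cd274, as the readout for the sort. Islets of C57BL/6 mice (males of the C57BL/6JRj substrain, 12 weeks old) were cultured without IFNγ or with IFNγ at 50 pg/mL for 20 h, dissociated and sorted by FACS. Beta cells (EpCam+, CD24low, CD71+, negative for the CD45, TER119 and CD31 lineage markers) gave 4 control libraries from islets without IFNγ, and 4 PD-L1high and 3 PD-L1low libraries from treated islets. Replicate 1 has no PD-L1low library. PD-L1high and PD-L1low cells differ by a sort on the response itself, so the contrast between them is not a contrast of treatments. The labels do not say whether libraries came from separate animals, and the p-values below measure the spread between these libraries only. The paper describes each n as a separate biological sample, and its figures of these RNA-seq data give n = 3 independent experiments. The labels number the replicates 1 to 4.

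Library totals lay between 10422018 and 15810769 expected counts. In the model described here, the 6 genes listed as an interferon check, Cd274 among them, were higher in PD-L1high than in control cells (6 of 6 passed the test), in PD-L1low than in control cells (5 of 6) and in PD-L1high than in PD-L1low cells (6 of 6). The 9 beta cell markers, the insulin genes among them, took 6.10 to 9.36% of counts in every library. Acinar, endothelial, stellate, macrophage, lymphocyte and erythroid lists were each at or below 0.000136% in every library, with Prss2, Cdh5, Col3a1, Adgre1, Lyz2, Cd3e, Ms4a1, Hbb-bs, Hba-a1 and Hba-a2 listed at 0 throughout. The 2 PP cell genes, Ppy and Pyy, took 0.0147 to 0.0374% of counts in control libraries, 0.00272 to 0.00342% in PD-L1low libraries and 0.0245 to 0.0578% in PD-L1high libraries. The 6 alpha cell genes took 0.0344 to 0.143%, 0.0409 to 0.0424% and 0.0624 to 0.157% in the same order. Duct cell genes took 0.00972 to 0.0495%, delta cell genes at most 0.00406%, Schwann cell genes at most 0.00129% and 12 dissociation stress genes 0.0230 to 0.0756% over all libraries. The part of these cells in the results below was not tested. In bulk RNA, fewer cells of a type and less RNA per cell cannot be told apart.

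Ribosomal proteins are made in the cytosol, imported into the nucleolus and assembled with ribosomal RNA into the small subunit, which decodes mRNA, and the large subunit, which forms the peptide bond. Each standard protein is needed at one or a few copies per ribosome, so the genes are transcribed at high and broadly matched levels in most cells. Their mRNAs typically begin with a C followed by an unbroken run of pyrimidines, the 5′ terminal oligopyrimidine (TOP) element. Through it mTORC1 and LARP1 adjust their translation without a need for a change in mRNA level. Beta cells devote much of their translation to proinsulin, and interferon can alter translation through other routes. RNA-seq reads mRNA levels and not translation.

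RefSeq (GRCm38.p6) gave start sequences for 66 of the 92 members. The other 26 had none, among them Rpl29, Rpl9-ps1, Rpl8, Rpl36a-ps1, Rpl32, Rpl30, Rpl10-ps3, Rplp1, Rpl36, Rps27a, Rpl17, Rps12-ps3, Rps29, Rpl9-ps6, Rpl23a, Rps20, Rpl21, Rpl36-ps4, Rps14, Rpl3 and Rpl7. At 14 of the 66 genes (21.2%), a listed start was C within an unbroken run of at least 5 pyrimidines, against 3.01% of all 27025 genes with a start sequence. This count depends on the listed start base. Rpl27a, with a run of 16 pyrimidines from its listed start, was not counted because that start was not C. A gene not counted was thus not shown to lack the element. The shared element is shown for 7 members chosen because it is the longest that begins with C (Rpl15, Rpl35, Rps10), because the gene is abundant (Rpl38) or encodes the S6 kinase substrate (Rps6), or because a near copy shares it (Rps27 and Rps27rt). The 30 bases run from 12 before the start to 18 after it, 5′ to 3′, and capitals mark the pyrimidine run that begins at the start. Rpl15 is at chr14:18270969-18270998 on the minus strand, Rpl35 at chr2:39005114-39005143 on the minus strand, Rps6 at chr4:86857350-86857379 on the minus strand, and Rps10 at chr17:27635227-27635256 on the minus strand. Rpl38 is at chr11:114668568-114668597 on the plus strand, Rps27 at chr3:90213631-90213660 on the minus strand and Rps27rt at chr9:114982722-114982751 on the minus strand.
Rpl15: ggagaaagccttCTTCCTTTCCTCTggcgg
Rpl35: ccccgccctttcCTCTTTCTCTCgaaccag
Rps10: ccgcgcacgcccCTTCCTTTCCagcctccg
Rps6: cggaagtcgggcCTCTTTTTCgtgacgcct
Rpl38: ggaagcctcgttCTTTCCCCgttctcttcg
Rps27: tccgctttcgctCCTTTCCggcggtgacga
Rps27rt: acttatcccttgCTTTCCggcggtgacgac

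The run was 13 pyrimidines in Rpl15, 11 in Rpl35, 10 in Rps10, 9 in Rps6, 8 in Rpl38, 7 in Rps27 and 6 in Rps27rt. From base 2 of Rps27 and base 1 of Rps27rt, the transcribed parts of the windows were identical over 38 bases, while the bases before the start differ. In windows of 300 bases (250 before the start and 50 after it), searched on both strands, CCGGAAG was found in 39.4% of members and 9.93% of all genes, GGGCGG in 62.1% and 38.2%, and AAGATGGC in 9.09% and 3.19%. These matches describe letters in a window and not binding. Members lie on 20 chromosomes, and Rps2 and Rpl3l are less than 20000 bases apart on chromosome 17.

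Most standard ribosomal protein genes lay between 100 and 500 TPM. Levels between genes are given as TPM, the authors' estimate per unit of transcript length, as means over the 11 libraries. The 77 standard genes ranged from 84.2 TPM (Rpl35) to 884 TPM (Rpl41), a 10.5-fold range with a median of 220.0 TPM. In that band were 68 genes, with 6 above it and 3 below. The median was 209 TPM for the large subunit and 250.4 TPM for the small subunit.

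The highest member was Rpl41, which encodes the shortest ribosomal protein, a peptide at the interface of the subunits. It was at 674, 1069.5, 943 and 756 TPM in control libraries (replicates 1 to 4, the order kept below), at 849, 1007 and 682 TPM in PD-L1low libraries (replicates 2 to 4) and at 1012, 949.8, 1176 and 604 TPM in PD-L1high libraries (replicates 1 to 4). The groups overlapped, with the lowest and the highest library both among PD-L1high cells.

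Rpl10, a late-joining large subunit protein near the peptidyl transferase centre, was at 551, 969, 914 and 876 TPM in control, 793, 990.1 and 699.8 TPM in PD-L1low and 959, 945, 967 and 714 TPM in PD-L1high libraries. Rps24, a small subunit protein mutated in some families with Diamond-Blackfan anaemia, was at 623, 579, 602 and 711 TPM in control, 472, 681 and 743 TPM in PD-L1low and 749.5, 512, 730.3 and 629 TPM in PD-L1high libraries. Both genes overlapped between all 3 groups.

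Rps27, a zinc-binding small subunit protein, was at 466, 637, 487 and 612 TPM in control, 457, 579.7 and 527 TPM in PD-L1low and 681, 658, 697 and 497 TPM in PD-L1high libraries. Rplp1, an acidic protein of the stalk that recruits elongation factors, was at 313, 630.4, 605 and 661 TPM in control, 493, 690.0 and 345 TPM in PD-L1low and 665, 546, 639.7 and 442 TPM in PD-L1high libraries. Rplp1 was low in control replicate 1 and in PD-L1low replicate 4, and no group stood apart for either gene.

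The order of levels was similar between libraries. Over the 77 standard genes, the rank correlation of TPM between 2 libraries had a median of 0.943 over 55 pairs and was never below 0.842. This is a description across genes of the same libraries. Single steps of the order were not resolved: in 85 of 87 pairs of neighbours, the ranges over the 11 libraries overlapped. Rpl41 exceeded Rpl10 in 8 of 11 libraries, by 31.5 ± 95.9 TPM (SD), so these 2 did not differ beyond their spread, nor did Rps24 and Rps27 (66.6 ± 102 TPM, 9 of 11 libraries).

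**Figure D1:**
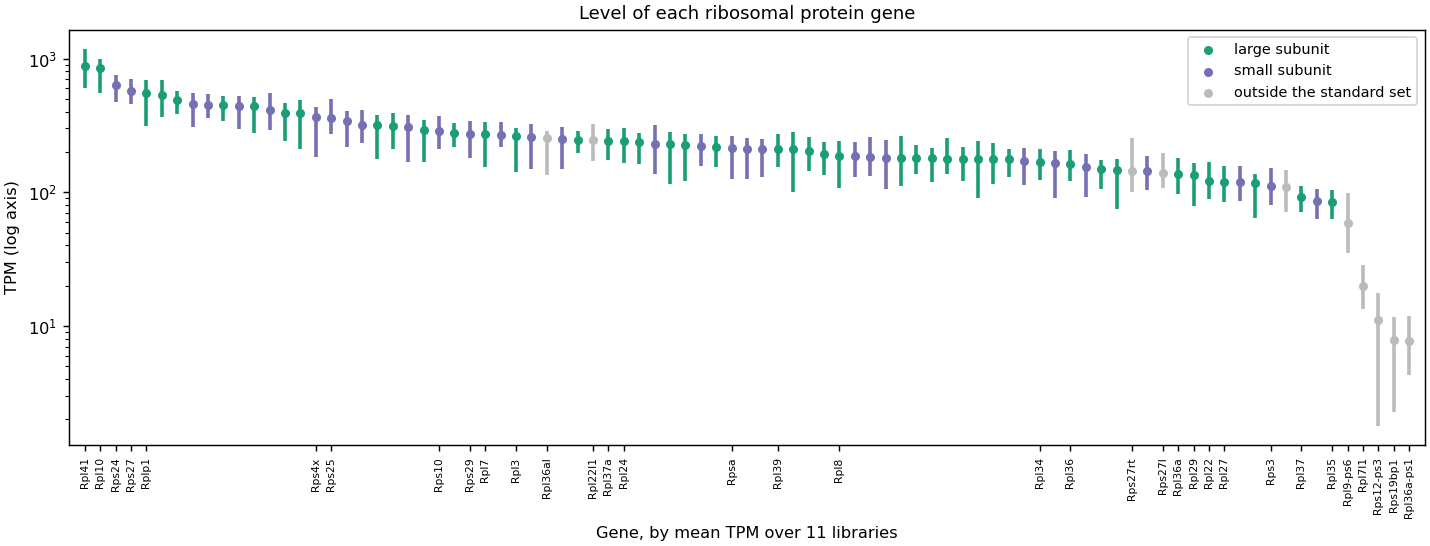
TPM of the 87 tested members is plotted on a log axis, with genes ordered by their mean over 11 libraries and the named ones labelled. Points are means and lines run from the lowest to the highest library, and the standard genes form a continuous slope from 884 TPM (Rpl41) to 84.2 TPM (Rpl35).

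Members outside the standard set ranged from levels of standard genes to 0. Rpl36al (253 TPM) and Rpl22l1 (244 TPM) lay above the standard median. Rpl9-ps6 (58.9 TPM), Rpl7l1 (19.8 TPM), Rps12-ps3 (11.1 TPM), Rps19bp1 (7.82 TPM) and Rpl36a-ps1 (7.70 TPM) were detected and tested, but lay below the lowest standard gene. The tissue-restricted paralogs were at or close to 0: Rpl3l, known from muscle, and Rpl10l, known from testis, had 0 counts in every library, as did the annotated copies Rpl9-ps1 and Rpl36-ps4. Rpl39l, another testis paralog, had 8 counts over all 11 libraries. These 5 genes did not pass the filter on low counts, and 87 members were tested.

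Ribosomal protein mRNA took about 1% of all counts in every group. The members' share was 0.952, 1.14, 1.11 and 1.11% of expected counts in control libraries, 0.921, 1.17 and 1.23% in PD-L1low libraries, and 1.12, 1.01, 1.26 and 0.997% in PD-L1high libraries. The means were 1.08 ± 0.0854% (SD, n = 4), 1.11 ± 0.166% (n = 3) and 1.10 ± 0.121% (n = 4). The groups overlapped, and the means differed by less than 1 SD of any group.

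Counting error was far smaller than the spread between libraries, since the 95% Wilson interval of control replicate 1 ran from 0.947 to 0.957% and that of PD-L1high replicate 3 from 1.25 to 1.26%. These intervals cover counting error only. Within replicate numbers, PD-L1high minus control was 0.168, -0.133, 0.149 and -0.109 percentage points, and PD-L1low minus control was -0.222, 0.0657 and 0.128 points for replicates 2 to 4. PD-L1high minus PD-L1low was 0.0891, 0.0836 and -0.237 points. Each of the 3 contrasts thus took both signs.

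Per unit of transcript length, the members' share was larger, since these mRNAs are short: their median effective length was 445 bases, against 2300.4 bases over tested protein-coding genes. The share of TPM was 1.53, 2.39, 2.14 and 2.28% in control, 1.86, 2.44 and 2.04% in PD-L1low and 2.4998, 2.22, 2.57 and 2.01% in PD-L1high libraries. Control replicate 1 was the lowest of the 11. That library also had the highest share of counts in mitochondrially encoded genes (13.3%, against 5.54 to 11.9% in the others) and the lowest share in 204 other short protein-coding genes (2.46%, against 3.03 to 4.63%), and the part of either in the members' share was not tested.

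The proportion of large to small subunit counts was similar in the 3 groups. The ratio of their shares of counts was 1.49, 1.65, 1.64 and 1.64 in control, 1.65, 1.58 and 1.52 in PD-L1low and 1.59, 1.63, 1.58 and 1.59 in PD-L1high libraries. The means were 1.60 ± 0.0786 (SD, n = 4), 1.58 ± 0.0644 (n = 3) and 1.60 ± 0.0241 (n = 4), which differed by less than the SD within any group.

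**Figure D2:**
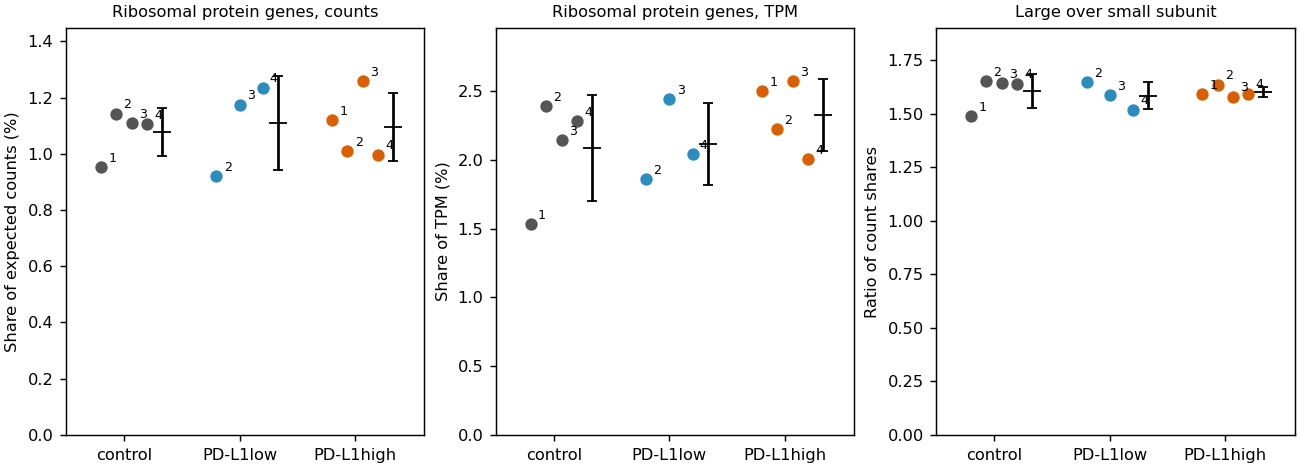
Share of expected counts (left, %), share of TPM (centre, %) and ratio of the large over the small subunit share (right) of ribosomal protein genes are plotted for each library, numbered by replicate, with the group mean and SD as a bar beside the points. The 3 groups overlap in each panel, and control replicate 1 is the lowest library for the share of TPM and for the ratio.

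No ribosomal protein gene passed the test between PD-L1high and control cells. In edgeR's quasi-likelihood test, 0 of 87 tested members passed an adjusted p of 0.05, while 0.991% of all tested genes did. At an unadjusted p under 0.05 there were 0 members, against 7.65% of all genes, and DESeq2 and limma-voom also called 0 members. The members' log2 fold changes had a median of 0.03, with 59 above 0 and 28 below, beside a median of -0.02 over all 16252 genes. They ran from -0.27 to 0.30.

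These data bound the change of most members closely. For 85 of 87 members, the 95% interval of the fold change lay wholly within 2-fold in either direction, which held for 10165 of the 16252 tested genes. The median width of the interval was 0.57 on the log2 scale, against 0.92 over all genes. All 77 standard genes were among the 85.

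The lowest fold changes in PD-L1high cells were those of Rps27rt, Rpl36 and Rpl34. Rpl36, a protein of the large subunit, was at 26.3, 30.6, 31.3 and 28.7 CPM (counts scaled to library size) in control and 27.0, 22.8, 28.1 and 21.1 CPM in PD-L1high libraries, with 19.1, 27.7 and 27.2 CPM in PD-L1low libraries. The groups overlapped, and the log2 fold change was -0.24 ± 0.15 (SE, adjusted p = 0.756). Rpl34, another protein of the large subunit, was at -0.21 ± 0.19 (adjusted p = 0.819), and Rps27rt at -0.27 ± 0.28 (adjusted p = 0.858).

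The highest were Rps27l, Rpl22 and Rps25. Rps27l, a paralog of Rps27 known as a p53 target, was at 49.2, 36.4, 34.7 and 30.0 CPM in control, 30.1, 33.5 and 50.7 CPM in PD-L1low and 40.8, 40.2, 59.8 and 43.5 CPM in PD-L1high libraries. Control replicate 1 overlapped the PD-L1high range, and the log2 fold change was 0.30 ± 0.19 (adjusted p = 0.766). Rpl22, a large subunit protein that also binds other RNAs, was at 0.23 ± 0.14 (adjusted p = 0.762). Rps25, a small subunit protein used by some internal ribosome entry sites, was also at 0.23 ± 0.14 (adjusted p = 0.755).

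The median over members depended on single libraries. Without control replicate 2 it was 0.18, with 80 of 87 members above 0. In that fit 13 of the 87 members were at an unadjusted p under 0.05, beside 2523 of all 16129 tested genes. After adjustment 0 members passed (smallest adjusted p 0.136). Without control replicate 3 the median was -0.03, with 35 members above 0, and without PD-L1high replicate 3 it was also -0.03, with 31 above 0.

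Between PD-L1low and control cells, no member passed the test either. In the same test, 0 of 87 members passed, against 0.08% of all tested genes, and 0 were at an unadjusted p under 0.05, against 2.1% of all genes. DESeq2 and limma-voom called 0 members. The median log2 fold change was 0.00, with 44 above 0 and 43 below, beside 0.00 over all genes, and values ran from -0.28 to 0.70. The intervals of 84 members lay within 2-fold, the 77 standard genes among them, and their median width was 0.63.

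The lowest values belonged to Rpl9-ps6, Rpl36 and Rpl35, and the highest to Rps12-ps3, Rps3 and Rpl36a-ps1. Rpl35, a large subunit protein at the exit of the peptide tunnel, was at 68.0, 61.4, 61.0 and 72.3 CPM in control, 47.7, 64.3 and 57.6 CPM in PD-L1low and 57.7, 50.4, 71.6 and 69.7 CPM in PD-L1high libraries. PD-L1low replicate 3 overlapped the control range, and the log2 fold change was -0.23 ± 0.13 (adjusted p = 1.00). Rpl36 was at -0.25 ± 0.17 (adjusted p = 1.00).

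Rps12-ps3 is an annotated copy of Rps12 on chromosome 19 (59322290 to 59322783) with few reads. It was at 3.02, 0.300, 1.93 and 2.24 CPM in control, 1.24, 3.03 and 3.09 CPM in PD-L1low and 2.25, 1.99, 2.04 and 0.415 CPM in PD-L1high libraries. Its log2 fold change of 0.70 ± 0.70 in PD-L1low against control cells (adjusted p = 1.00) had an interval from -0.80 to 2.20. An increase of more than 2-fold was therefore not bounded at this depth, while a decrease of more than 2-fold lay outside the interval.

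Here too the median moved with single libraries. Without PD-L1low replicate 4 it was -0.13, with 5 of 87 members above 0. Without PD-L1low replicate 2 it was 0.13, with 66 above 0, and without control replicate 2 it was 0.17, with 72 above 0. No member passed the adjusted threshold in any of these fits (smallest adjusted p 0.998).

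Between PD-L1high and PD-L1low cells, again no ribosomal protein gene passed the test. The count was 0 of 87, against 0.732% of all tested genes, and 1 member was at an unadjusted p under 0.05, against 8.52% of all genes. DESeq2 and limma-voom called 0 members. The median log2 fold change was 0.05, with 62 members above 0 and 25 below, beside 0.00 over all genes, and the interval lay within 2-fold for 83 members.

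The one member below an unadjusted p of 0.05 was Rpl27, a large subunit protein mutated in rare cases of Diamond-Blackfan anaemia, on chromosome 11 (101442298 to 101445529, plus strand). It was at 32.8, 48.6 and 43.8 CPM in PD-L1low and 48.9, 40.1, 66.4 and 59.6 CPM in PD-L1high libraries, with 48.9, 43.8, 43.1 and 44.9 CPM in control libraries. The groups overlapped, since PD-L1high replicate 2 lay below 2 of the 3 PD-L1low libraries. The log2 fold change was 0.36 ± 0.15 (unadjusted p = 0.0296, adjusted p = 0.537), and over the alternatives the smallest adjusted p was 0.253.

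Rpsa, a small subunit protein also known as a laminin receptor precursor, was at 171, 292, 247 and 291 CPM in control, 221, 297 and 235 CPM in PD-L1low and 227, 275, 325 and 277 CPM in PD-L1high libraries. Its groups overlapped, and the log2 fold change was 0.26 ± 0.14 (adjusted p = 0.632). Rps27l was at 0.24 ± 0.21 (adjusted p = 0.813).

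The most negative member was Rps12-ps3, at -0.64 ± 0.72 (adjusted p = 0.861), and then Rps3 and Rps24. Rps24 was at 319, 184, 218 and 212 CPM in control, 169, 229 and 347 CPM in PD-L1low and 230.3, 153, 255 and 224 CPM in PD-L1high libraries. It was highest in PD-L1low replicate 4 and in control replicate 1, and the log2 fold change between PD-L1high and PD-L1low cells was -0.28 ± 0.16 (adjusted p = 0.683).

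Without PD-L1low replicate 4, the median over members was 0.18, with 84 of 87 above 0. Without PD-L1low replicate 2 it was -0.06, with 32 above 0, and without PD-L1high replicate 3 it was -0.03, with 34 above 0. In these 3 fits 0 members passed the adjusted threshold, and 1, 1 and 2 of 87 were at an unadjusted p under 0.05. Over all tested genes of the same fits, 972 of 16856, 842 of 16833 and 994 of 16138 were at an unadjusted p under 0.05.

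**Figure D3:**
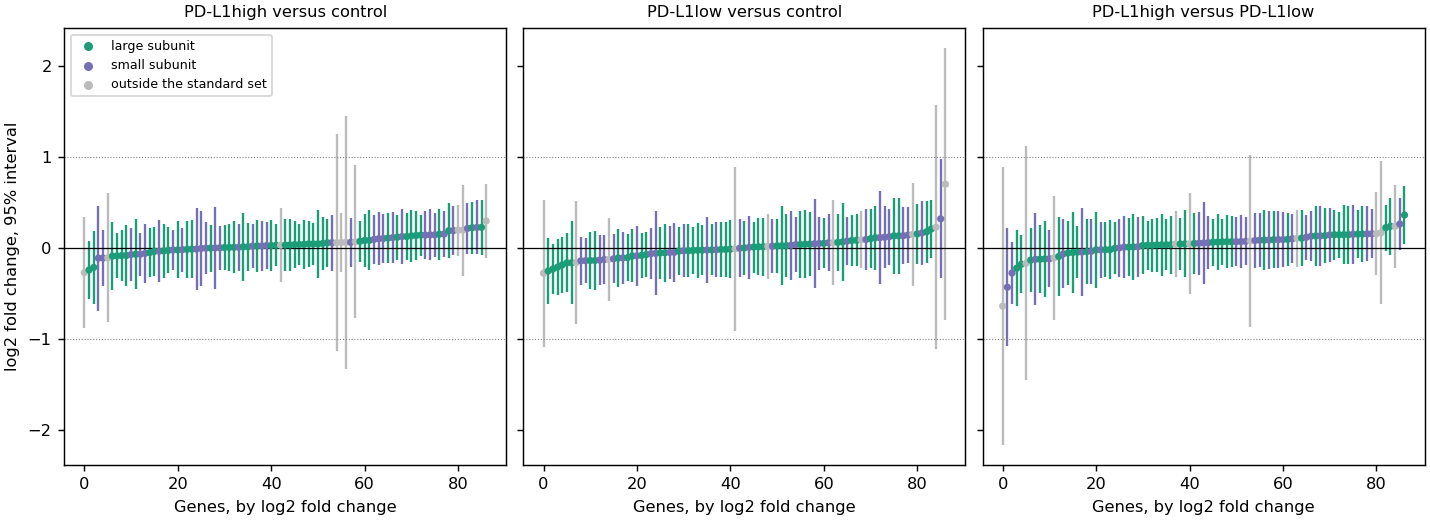
log2 fold changes of the 87 tested members are plotted with their 95% intervals for the 3 comparisons, ordered within each panel and coloured by subunit, and dotted lines mark 2-fold in either direction. Nearly all points lie within 0.3 of 0, and the intervals that reach past 2-fold belong to members outside the standard set and, between PD-L1high and PD-L1low cells, to Rps3.

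The medians of both subunits were close to 0. The median log2 fold change of the 46 large subunit genes was 0.03, -0.02 and 0.04 in PD-L1high against control, PD-L1low against control and PD-L1high against PD-L1low cells, and that of the 31 small subunit genes was 0.02, 0.01 and 0.07. A few functional units were chosen after their values were seen. Rplp0, Rplp1 and Rplp2, which form the stalk, were at 0.03, -0.03 and 0.03 in PD-L1high against control cells, at -0.21, -0.16 and -0.05 in PD-L1low against control cells and at 0.24, 0.13 and 0.09 between PD-L1high and PD-L1low cells. Rpl5 and Rpl11, which bind MDM2 together with 5S RNA when assembly fails, were at 0.06 and 0.04, 0.02 and -0.03, and 0.03 and 0.06 in the same order. Rps6, the substrate of the S6 kinases, was at 266, 349, 293 and 300.2 CPM in control, 247, 343 and 337 CPM in PD-L1low and 312, 259, 372 and 275 CPM in PD-L1high libraries, and its log2 fold change was 0.00 in each comparison.

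Libraries differed more than groups did. Of the 87 tested members, 44 had their highest value in PD-L1high replicate 3 and 29 in PD-L1low replicate 4. The lowest value was in PD-L1low replicate 2 for 35 members and in control replicate 1 for 30. Each of the 3 groups thus held a library at one end of the members' range. This is a description of which libraries stood apart and not a test.

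**Figure D4:**
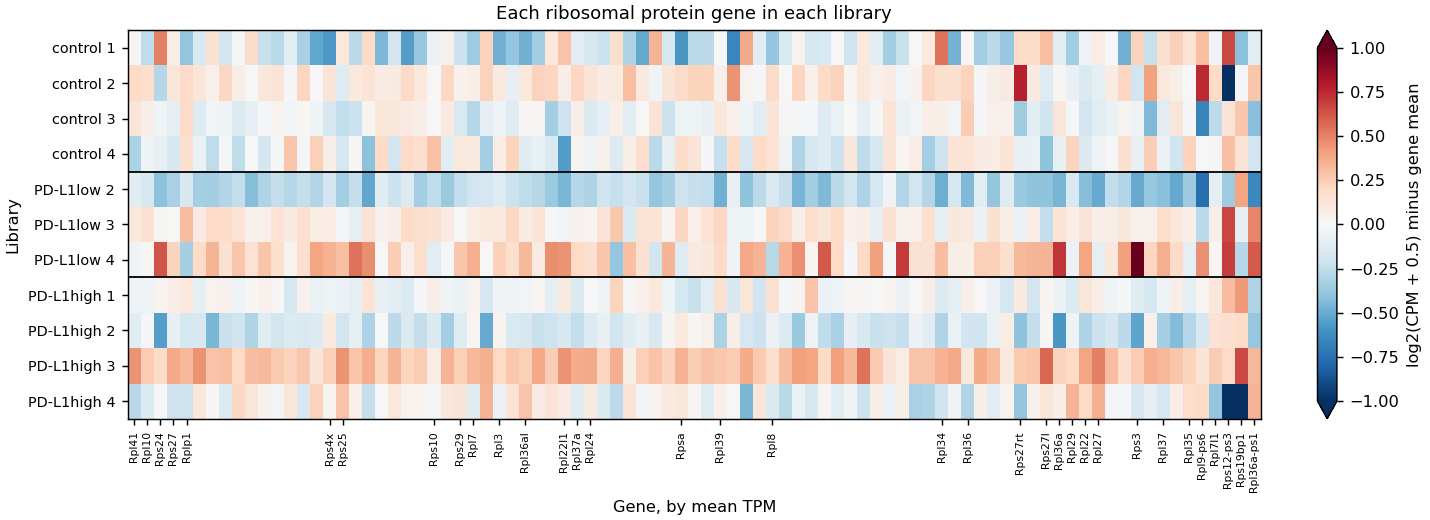
log2(CPM + 0.5) of each tested member minus its own mean over the 11 libraries is shown by colour, with libraries in rows and genes in columns ordered by TPM, the named ones labelled. PD-L1high replicate 3 is above the gene's mean for 87 of 87 genes and PD-L1low replicate 2 for 1, while control replicate 1 is above it for 29.

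After condition and replicate number were fitted, the members still varied together over the 11 libraries. The correlation of a member's residuals with the mean of the other members had a median of 0.826, was above 0.5 for 76 of 87 and below 0 for 2. With 5 residual degrees of freedom, and libraries that share depth and scaling, this is a description only. The closest to the mean of the others were Rps29 (0.989), Rps27rt (0.984), Rpl37a (0.978), Rpl24 (0.974) and Rpl37 (0.964). The farthest were Rps12-ps3 (-0.162), Rpl29 (-0.160), Rps19bp1 (0.149), Rps10 (0.205) and Rpl8 (0.233).

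Ribosomal protein genes have many near-identical copies in the genome, and reads that fit several copies were divided between them by the authors' estimation. Expected counts of tested members were not whole numbers (tolerance 0.005) in 86.7% of values, against 22.5% over all tested genes. The tables hold 290 further genes with a ribosomal protein symbol that are not annotated as protein-coding. Of these, 124 had 0 counts in every library, and together they took 0.0253 to 0.0351% of counts, a small amount beside the members' share. Values of single members with close copies are therefore uncertain where the division could shift reads.

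Rps27rt, on chromosome 9 (114982366 to 114982739, minus strand), shares the start shown above with Rps27. It was at 24.6, 37.1, 16.6 and 20.3 CPM in control, 16.4, 20.5 and 27.0 CPM in PD-L1low and 22.9, 16.1, 25.7 and 16.2 CPM in PD-L1high libraries. Of the TPM of the pair it took 21.8 ± 4.80% (SD, n = 4) in control, 19.9 ± 1.24% (n = 3) in PD-L1low and 18.0 ± 1.61% (n = 4) in PD-L1high libraries, with non-whole counts for both genes in all 11 libraries. The shares overlapped between groups.

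The -ps copies took a smaller part of their pairs than the parent genes did. Rpl9-ps6 took 17.8 to 33.4% of the TPM it shares with Rpl9, Rpl10-ps3 took 8.25 to 13.5% of that shared with Rpl10, Rpl36a-ps1 took 3.25 to 7.06% beside Rpl36a and Rps12-ps3 took 0.794 to 8.35% beside Rps12. All 4 copies had non-whole counts in all 11 libraries. Rpl9-ps6 was at 35.5, 48.6, 18.0 and 28.9 CPM in control, 16.9, 23.9 and 39.7 CPM in PD-L1low and 29.2, 25.7, 31.5 and 32.9 CPM in PD-L1high libraries, so the control libraries alone spanned nearly the whole range.

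Paralogs that encode distinct proteins differed in how far their reads were divided. Counts were not whole in 11 of 11 libraries for Rpl22l1, 9 for Rpl36al, 1 for Rpl7l1 and 0 for Rps27l. Rpl22l1, a paralog that can stand in for Rpl22, took 66.7 ± 4.74%, 65.4 ± 0.742% and 67.6 ± 1.96% of the TPM of the pair (SD, n = 4, 3 and 4) in control, PD-L1low and PD-L1high libraries. It was thus the more abundant of the 2 in every library (60.1 to 71.2%), although its own counts were divided in every library while those of Rpl22 were whole. Rps27l took 15.6 to 22.1% of the TPM it shares with Rps27. Rpl36al took 58.0 to 71.9% beside Rpl36a, and Rpl7l1, which acts in ribosome assembly, took 5.28 to 10.2% beside Rpl7. In these 4 pairs the log2 fold changes of both genes lay between -0.22 and 0.30 in the 3 comparisons, and none passed the test.

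Rpl3, Rps4x and Rpl39 have paralogs that were silent here or not members. Rpl3, which reaches close to the peptidyl transferase centre, had log2 fold changes of 0.13, 0.08 and 0.04 in the 3 comparisons, Rps4x, encoded on chromosome X, 0.22, 0.12 and 0.09, and Rpl39 0.05, 0.01 and 0.04. The adjusted p was 0.752 or more for each of these values.

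Rps19bp1 shared the symbol pattern but not the level of ribosomal protein genes. It was at 3.26, 4.42, 5.50 and 5.02 CPM in control, 6.04, 4.22 and 3.58 CPM in PD-L1low and 6.18, 5.17, 7.39 and 1.56 CPM in PD-L1high libraries, with a mean of 7.82 TPM. The lowest and the highest library were both PD-L1high.

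Introns of many ribosomal protein genes carry small nucleolar RNAs (snoRNAs), which guide modification of ribosomal RNA and are released from the spliced intron. Of the 87 tested members, 30 have an annotated snoRNA gene within them on the same strand, 58 snoRNA genes in all. Members with and without such genes had similar medians of the log2 fold change, 0.03 and 0.03 in PD-L1high against control cells, 0.02 and -0.01 in PD-L1low against control cells and 0.06 and 0.05 between PD-L1high and PD-L1low cells. Neither group held a member that passed the test.

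One host stood out in a single library. Rps3, a small subunit protein at the mRNA entry channel (chromosome 7, 99477896 to 99483738, minus strand), was at 241, 180.2, 199 and 196 CPM in control, 145, 212 and 445 CPM in PD-L1low and 189, 143, 247 and 185 CPM in PD-L1high libraries. PD-L1low replicate 4 was the highest of the 11, and the other 2 PD-L1low libraries lay within the range of the control and PD-L1high libraries. The log2 fold change between PD-L1high and PD-L1low cells was -0.43 ± 0.28 (adjusted p = 0.743), with an interval from -1.08 to 0.22. Without PD-L1low replicate 4 it was 0.06 (adjusted p = 0.968). Over all alternatives it ran from -0.73, without the libraries of replicate 3, to 0.06, and the smallest adjusted p was 0.104, without a filter on low counts.

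Snord15b, a snoRNA gene within Rps3 (99479563 to 99479707), was highest in the same library. It was at 152, 51.1, 141 and 99.1 CPM in control, 105, 122 and 376 CPM in PD-L1low and 108, 43.2, 135 and 121 CPM in PD-L1high libraries, and it was the most abundant of the 58 snoRNA genes by mean count. In the annotation, Snord15b lies inside an exon of 1 of 2 Rps3 transcripts that keep an intron, and inside no exon of the 3 protein-coding ones. The effective length of Rps3, a mean over its transcripts weighted by their estimated levels, was 2280.4 bases in PD-L1low replicate 4 and 1359 to 1996 bases in the other libraries. All annotated snoRNA genes together took 0.114% of counts in that library, against 0.0270 to 0.0660% in the others, and the part of intron or snoRNA reads in the Rps3 value was not tested.

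**Figure D5:**
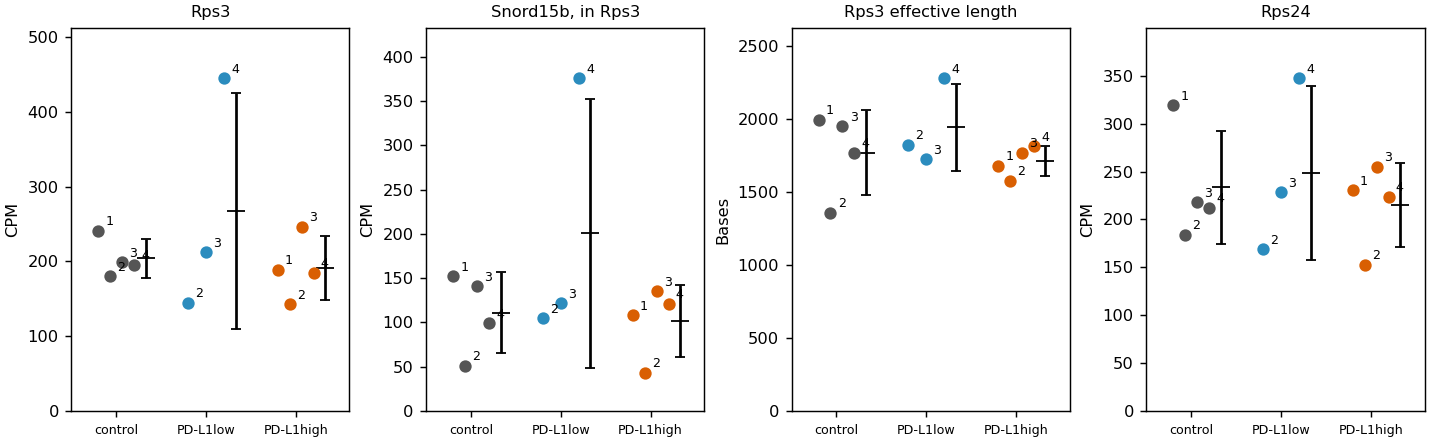
CPM of Rps3, CPM of Snord15b, the effective length of Rps3 in bases and CPM of Rps24 are plotted for each library, numbered by replicate, with the group mean and SD as a bar. PD-L1low replicate 4 is the highest library in all 4 panels, at 445 CPM for Rps3 and 376 CPM for Snord15b.

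Standard ribosomal proteins with other symbols were close to the members. Fau, whose product is made fused to a ubiquitin-like protein, had log2 fold changes of 0.03, -0.15 and 0.18 in PD-L1high against control, PD-L1low against control and PD-L1high against PD-L1low cells. Rack1, a scaffold on the small subunit, had 0.03, -0.07 and 0.10. Neither passed the test, and the smallest adjusted p was 0.751.

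Other TOP mRNAs encode elongation factors and binding proteins that are translated together with ribosomal proteins. Of 16 such genes, 0 passed the test in any comparison with edgeR, with medians of 0.11, 0.04 and 0.06 in the order above and 15, 12 and 10 of 16 above 0. Over all 16252 tested genes, 7642, 8143 and 8038 were above 0. At an unadjusted p under 0.05 there were 1, 0 and 1 of the 16, against 7.65, 2.1 and 8.52% of all tested genes. Among the 16, the smallest p in PD-L1high against control cells was that of Pabpc1, the poly(A)-binding protein. Pabpc1 was at 422, 581, 479 and 654 CPM in control and 857, 595, 635 and 686 CPM in PD-L1high libraries. Its log2 fold change was 0.38 ± 0.14 (adjusted p = 0.490), and the groups overlapped.

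Over all 16252 tested genes, 7642, 8143 and 8038 were above 0 in the 3 comparisons. At an unadjusted p under 0.05 were 7.65, 2.1 and 8.52% of all tested genes. Initiation factors (35 genes) had medians of 0.15, 0.02 and 0.14, and 31, 22 and 29 of them were above 0. Ribosome biogenesis factors (54 genes) had medians of 0.16, 0.06 and 0.07. In both lists 0 genes passed the test, and at an unadjusted p under 0.05 there were 1, 0 and 1 initiation factors and 5, 2 and 6 biogenesis factors. The lists share genes. Between PD-L1high and PD-L1low cells, the 1 initiation factor and the 1 gene of the TOP list above were the same gene, Eif3f. Among the biogenesis factors, Tsr1, which acts on the maturing small subunit, was at 64.6, 90.4, 77.2 and 75.8 CPM in control and 94.6, 103, 107 and 102 CPM in PD-L1high libraries. These 2 groups did not overlap, and the log2 fold change was 0.41 ± 0.11 (adjusted p = 0.157).

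Elongation factors (9 genes), ribosomal protein chaperones (8), S6 kinases (10), regulators of TOP mRNA translation (14) and ribosome quality control factors (10 of 11 tested) also held 0 genes that passed edgeR's test in any comparison. At an unadjusted p under 0.05, elongation factors had 0, 1 and 1 genes in the order above, chaperones 0 in each, S6 kinases 1, 0 and 0, TOP regulators 0, 1 and 1, and quality control factors 0, 0 and 1. Over all tested genes, 7.65, 2.1 and 8.52% were at an unadjusted p under 0.05. The medians of these lists in PD-L1high against control cells were 0.10, 0.09, -0.13, 0.04 and 0.04. Eef1a2, an elongation factor known from neurons and muscle, was low in all libraries, at 1.40, 2.70, 0.845 and 1.34 CPM in control, 0.248, 0.0739 and 0.140 CPM in PD-L1low and 0.579, 2.94, 1.81 and 2.49 CPM in PD-L1high libraries. The PD-L1low libraries lay below all others, and the log2 fold change between PD-L1high and PD-L1low cells was 3.77 ± 0.84 (adjusted p = 0.0571). Hormone genes of other islet cells also had negative log2 fold changes in PD-L1low against control cells. The values were -3.49 (Ppy), -2.76 (Pyy), -1.80 (Gcg) and -1.64 (Sst), and only Ppy and Pyy passed edgeR's test. The shares of the alpha and delta cell lists overlapped between these groups. Those of the PP cell list did not, at 0.0147 to 0.0374% in control and 0.00272 to 0.00342% in PD-L1low libraries. The part of such cells in the Eef1a2 value was not tested. Eif4ebp1, an mTORC1 substrate that represses initiation, had the smallest p of the TOP regulators, at 21.4, 36.4, 38.2 and 39.7 CPM in control, 22.3, 33.9 and 26.1 CPM in PD-L1low and 26.1, 34.2, 43.9 and 35.2 CPM in PD-L1high libraries. Its log2 fold change between PD-L1high and PD-L1low cells was 0.51 ± 0.15 (adjusted p = 0.272).

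The 8 snoRNA host genes without a coding role had medians of -0.17, 0.28 and -0.41, and 0 passed edgeR's test, with 0 at an unadjusted p under 0.05 in each comparison. Gas5, itself a TOP transcript that hosts snoRNAs, was at 119.6, 54.3, 81.1 and 59.0 CPM in control, 77.7, 71.4 and 116 CPM in PD-L1low and 75.1, 63.8, 70.1 and 83.0 CPM in PD-L1high libraries. It was highest in control replicate 1 and PD-L1low replicate 4, the libraries in which Rps24 was highest, and its log2 fold change between PD-L1high and PD-L1low cells was -0.38 ± 0.20 (adjusted p = 0.637).

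Proteins of the mitochondrial ribosome, which is built from separate genes and translates mitochondrially encoded mRNA, were set beside the cytosolic ones. Of 78 genes, 0 passed the test in any comparison. At an unadjusted p under 0.05 were 4, 1 and 7 of them, against 7.65, 2.1 and 8.52% of all tested genes. The medians of the 78 genes were 0.04, -0.03 and 0.08. The smallest p in PD-L1high against control cells belonged to Mrpl27, at 7.14, 9.82, 10.9 and 7.88 CPM in control and 16.4, 14.1, 14.2 and 15.5 CPM in PD-L1high libraries. The groups did not overlap, and the log2 fold change was 0.76 ± 0.22 (adjusted p = 0.209). The mitochondrial list took 0.112 to 0.139% of counts, and its interval widths had medians of 0.83, 0.93 and 0.93, wider than those of the cytosolic members.

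Members with and without a pyrimidine run that begins with C at a listed start were also set side by side. The 14 with it had medians of -0.01, -0.04 and 0.04 in the 3 comparisons, and the 49 tested members with a start sequence and no such run had 0.03, 0.01 and 0.06. No member of either set passed the test. The split follows the listed starts and was not shown to separate TOP mRNAs from others.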

How the data were processed

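RNA-seq libraries were prepared by the authors from 5 ng of total RNA with the NuGEN Ovation Solo kit (random primers, strand-specific, ribosomal RNA depleted) and read as pairs on a NextSeq 500. Per the submitters' processing notes, STAR 2.5.2b, RSEM (version not given in the sources used here), DESeq2 1.32.0 and GRCm38.p6 were used. The deposited files give, per gene and library, expected counts that RSEM estimated by dividing reads that fit several genes, TPM, which the authors scaled per transcript length and library, and effective length. Symbols, types and coordinates came from GENCODE M21 on GRCm38, the nearest annotation at hand to the authors' M23, which left 260 genes without a type.

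Expected counts were rounded (changing no total by more than 0.000388%) and tested with edgeR 4.0.16 (R 4.3.3): TMM scaling, filterByExpr with a count minimum of 10, a robust quasi-likelihood fit of condition plus a replicate term on the 11 libraries, and Benjamini-Hochberg adjustment over 16252 genes. CPM is scaled by the TMM library sizes. The study used a batch term, for which the replicate number is the only grouping in the labels. Members and lists were chosen with earlier results of these data known, and no p is given for a score over the members. Members were named by rule: any called; the 5 highest by TPM; the 3 highest and 3 lowest fold changes per comparison; paralog pairs; Rps19bp1; members not tested; and the 5 most and 5 least like the other members. For other lists, the genes with the smallest p are named. Alternatives were other scalings and filters, DESeq2 1.42.0, limma-voom (limma 3.58.1), no replicate term, 2 groups only and leaving out libraries. The share was recomputed for the standard set only, an alternative chosen after seeing the data. RefSeq start sequences were used as given. Some genes are not reported here by name.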

Additional observations from a re-analysis of the deposited data

Results flagged for a closer look

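A sample far from the others of its group was found in 8 of 87 groups of 4 libraries examined. Chance gives about 1 in 20 for a single group. These groups share the same libraries and are not independent, so the count of 8 is not a test. The test value is the gap to the nearest library over the range of the group, with a limit of 0.829. Control replicate 1 was lowest for the ratio of the large to the small subunit share (1.49, test value 0.928), for Rplp1 (114 CPM, 0.926) and for Rpl8 (90.4 CPM, 0.864). Control replicate 4 was highest for Rps10 (153 CPM, 0.840). Control replicate 2 alone held Rpl39l counts among controls (0.525 CPM). Its test value of 1.00 follows from the other controls being at 0, so it says nothing of how far that library stands apart, and it is included in the 8. PD-L1high replicate 3 was highest for Rps27l (59.8 CPM, 0.831) and for Rpl37a (107 CPM, 0.834), and PD-L1high replicate 4 was lowest for Rps12-ps3 (0.415 CPM, 0.855).

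PD-L1high and PD-L1low cells differed by the edgeR test in 119 of 16252 genes (0.732%). Flagged among them were Cd274 (log2 difference 2.48), on whose protein the cells were sorted, and 4 hormone genes of other islet cells. These were Ppy (4.16), Pyy (2.96), Gcg (2.37) and Sst (2.42).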

How the results depend on the processing

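Under 27 alternatives, 0 members passed the adjusted threshold in any of the 3 comparisons, and the smallest adjusted p of a member was 0.136, 0.996 and 0.104 for PD-L1high against control, PD-L1low against control and PD-L1high against PD-L1low cells, the last for Rps3 without a filter. The standard set alone, chosen after seeing the data, also gave 0. The median log2 fold change over members changed sign in 4, 12 and 2 of the 27, and ran from -0.01 to 0.04, -0.01 to 0.03 and 0.01 to 0.06 over changes of scaling, filter, tool or model. Leaving out libraries, it ran from -0.04 to 0.18, -0.13 to 0.17 and -0.06 to 0.18. The SD between libraries of a group in the members' median was 0.19. Leaving out 1 library of 3 or 4 moves a group mean by only part of such an SD. That these moves were smaller than 0.19 therefore says nothing of how stable the medians are. Upper quartile scaling turned the first median to -0.01. Without the replicate block, the medians were 0.03, 0.03 and 0.02. The numbers were not shown to pair the samples: 6 of 10 same-numbered pairs had correlated deviations above 0.1, and values ran from -0.329 to 0.408.

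The mean share of counts was 1.19% in control libraries without mitochondrial genes in the total. Without the 20 most abundant genes it was 1.45, 1.51 and 1.47% in control, PD-L1low and PD-L1high libraries, and as a share of TPM 2.09, 2.11 and 2.33%. Leaving out a library gave 1.06 to 1.12%, 1.05 to 1.20% and 1.04 to 1.13%. Among values of single named genes, 3103 kept their status as called or not called, 21 lost a call and 12 gained one. Those that lost or gained a call were all of Cd274, Gcg, Ppy or Sst, and no member. A further 17 untested values moved. Values that passed no test could change sign, and that of Rpl41 in PD-L1high against control cells ran from -0.12 to 0.12. Calls depended on 3 or 4 libraries a group, and reads shared between copies cannot be assigned to one gene. The 5 members near 0 counts could not be tested.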
